A study of Homo sapiens with 12 samples.

Results

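The mRNAs of 10 secreted growth factors of fibroblasts were followed in senescence: HGF, VEGFA and VEGFC, FGF2 and FGF7, PDGFA, and the EGF family ligands EREG, AREG, HBEGF and NRG1. They were chosen by name from the HGF, VEGF, FGF, PDGF and EGF families, without a threshold on any measured value. The choice was made with earlier results of these data known. They are 10 of the 57773 genes in the count files. All 10 passed the filter on low counts and were among the 21518 genes tested. The RNA came from WI-38, a human diploid fibroblast line from lung, in 4 groups of 3 bulk RNA-seq libraries. The first group (siCtrl proliferating) received the vehicle DMSO and a non-targeting siRNA pool. The other groups were made senescent with 50 µM etoposide, a topoisomerase II poison that breaks DNA, for 8 days, and were transfected with the non-targeting pool (siCtrl), with a pool against NTRK2 mRNA, which encodes the receptor TrkB (siNTRK2), or with a pool against BDNF mRNA, which encodes a TrkB ligand (siBDNF). Each siRNA was used at 25 nM, in cells kept at low population doublings. The comparisons ask how growth factor mRNAs differ between senescent and proliferating fibroblasts. They also ask how these mRNAs differ between senescent cells with siNTRK2 or siBDNF and those with siCtrl. The study reports that fewer senescent cells survived when TrkB or BDNF was silenced, above all in late senescence. The RNA is from late senescence, and so from the cells that remained. Each target had 1 siRNA pool. The parts of cell loss and of off-target effects of a pool in the values were not tested. All groups come from 1 cell line, siCtrl proliferating cells were the only proliferating group, and p-values measure the spread between libraries. The study states in general that its in vitro work was done as independent experiments that kept the groups together, but the labels do not say whether a replicate number marks such an experiment.

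Senescent cells stop dividing but stay metabolically active and release cytokines, proteases and growth factors, together called the senescence-associated secretory phenotype. Each ligand described here signals through a receptor tyrosine kinase on the receiving cell: HGF through MET, VEGFA mainly through KDR and FLT1, VEGFC through FLT4, the FGFs through FGF receptors, PDGFA through PDGFRA, and the EGF family through EGFR and the ERBB receptors. EREG, AREG, HBEGF and NRG1 are made as membrane-anchored precursors that proteases such as ADAM17 cut free, whereas FGF2 leaves the cell without a signal peptide and is held by heparan sulfate at the cell surface. Fibroblasts are known as a main source of HGF and FGF7, which act on neighbouring epithelium.

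The libraries held between 31567912 and 72328151 counted reads, and 3 counts corresponded to 0.0427 to 0.0916 normalized CPM (the count scaled to the library's adjusted size), depending on the library. Silencing was visible in the targeted mRNAs. BDNF mRNA averaged 162 ± 6.32 CPM (SD, n = 3) with siCtrl and 47.1 ± 2.44 with siBDNF in senescent cells. NTRK2 mRNA, low throughout, had 32 counts over the siCtrl senescent libraries and 0 over the siNTRK2 libraries. It was at least 3.37-fold lower, with a floor of 3 counts per library. With siNTRK2, BDNF mRNA was higher than with siCtrl, at 205 CPM (log2 fold change 0.33, adjusted p = 8.35e-06). The siNTRK2 and siBDNF groups thus lay on opposite sides of siCtrl in BDNF mRNA (siNTRK2 minus siBDNF, 2.12). NTRK2 mRNA averaged 0.356 CPM with siBDNF and 0.185 with siCtrl, and did not pass the test. Between siCtrl proliferating and siCtrl senescent cells, the cell cycle inhibitor CDKN1A was 3.07-fold higher, and the log2 fold changes of the proliferation marker MKI67 and of LMNB1, a nuclear lamina protein lost in senescence, were -3.68 and -4.20. In siNTRK2-transfected senescent cells CDKN1A mRNA was lower than with siCtrl (2032 ± 69.1 against 2877 ± 95.1 CPM) and MKI67 mRNA was higher (4.19 ± 0.290 against 1.28 ± 0.42 CPM). LMNB1 mRNA was higher too (3.29 ± 0.282 against 2.15 ± 0.326 CPM, log2 fold change 0.62, adjusted p = 0.00045). MKI67 mRNA was also higher with siBDNF (2.35 ± 0.421 CPM, log2 fold change 0.91, adjusted p = 0.000553), while CDKN1A and LMNB1 mRNAs measured 2793 ± 58.6 and 1.94 ± 0.257 CPM there. The part of these mRNAs in the growth factor values was not tested. All 8 fibroblast markers were found in every group, with a summed level of 31837 to 33775 CPM in proliferating libraries, 23048 to 24836 with siCtrl, 27044 to 29956 with siNTRK2 and 23855 to 24421 with siBDNF in senescent libraries. Of the endothelial markers, PECAM1 could not be matched by symbol. CDH5 was at 0 in proliferating libraries and averaged 0.163 CPM in siCtrl senescent libraries, and VWF averaged 0.765 and 1.86 CPM there. TEK, most of the sum, went the other way, from 75.5 to 32.8 CPM (log2 fold change -1.20, adjusted p = 6.37e-15). The sum was 75.2 to 77.9 CPM in proliferating libraries. In senescent libraries it was 34.1 to 35.9, 34.4 to 40.9 and 24.3 to 25.2 CPM with siCtrl, siNTRK2 and siBDNF. The 4 epithelial markers summed to 25.2 to 31.9 CPM, mostly KRT8, which averaged 28.2 CPM in proliferating and 29.7 CPM in siCtrl senescent libraries. Between these groups CDH1 rose from 0.0497 to 0.535 CPM (log2 fold change 3.54, adjusted p = 1.04e-05). KRT8 and EPCAM did not pass the test there, and KRT5 had too few counts to test. The 4 leukocyte markers summed to 0.157 to 0.215 CPM in proliferating libraries and to 1.70 to 1.89, 1.24 to 1.55 and 2.11 to 2.19 CPM in the senescent libraries with siCtrl, siNTRK2 and siBDNF, with PTPRC at 0 in the proliferating libraries. The part of these markers in the results below was not tested. In bulk RNA, fewer cells making a transcript and less RNA per cell cannot be told apart.

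Of the 4 EGF family genes, 3 have a promoter sequence in the RefSeq table for GRCh38.p14, and these are shown because their mRNAs differed most between senescent and proliferating cells among the ligands with an entry. Each runs 5′ to 3′ from 250 bases before to 50 bases after the transcription start, on the strand of the gene: EREG at chr4:74364895-74365194 (plus strand), AREG at chr4:74444886-74445185 (plus strand) and HBEGF at chr5:140346554-140346853 (minus strand). HGF, at chr7:81769998-81770297 (minus strand), is shown beside them because its mRNA went the other way. Capitals mark the TATA box letters TATAAA and the cyclic AMP response element TGACGTCA, searched on both strands.
EREG: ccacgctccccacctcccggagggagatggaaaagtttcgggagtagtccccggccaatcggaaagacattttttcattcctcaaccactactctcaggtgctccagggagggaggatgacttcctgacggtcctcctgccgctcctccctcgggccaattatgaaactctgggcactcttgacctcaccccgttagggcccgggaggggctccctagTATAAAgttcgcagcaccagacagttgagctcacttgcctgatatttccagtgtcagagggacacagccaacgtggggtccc
AREG: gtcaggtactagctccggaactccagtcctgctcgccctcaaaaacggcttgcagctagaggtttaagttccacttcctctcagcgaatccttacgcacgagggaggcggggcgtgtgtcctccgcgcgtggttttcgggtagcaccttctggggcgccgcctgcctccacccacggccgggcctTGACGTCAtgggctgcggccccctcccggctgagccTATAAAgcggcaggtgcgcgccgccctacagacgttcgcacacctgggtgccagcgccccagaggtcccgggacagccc
HBEGF: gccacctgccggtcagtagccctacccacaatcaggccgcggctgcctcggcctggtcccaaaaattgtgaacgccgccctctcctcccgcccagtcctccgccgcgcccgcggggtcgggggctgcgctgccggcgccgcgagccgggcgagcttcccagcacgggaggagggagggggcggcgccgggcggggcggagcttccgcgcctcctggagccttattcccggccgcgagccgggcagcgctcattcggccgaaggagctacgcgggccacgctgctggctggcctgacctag
HGF: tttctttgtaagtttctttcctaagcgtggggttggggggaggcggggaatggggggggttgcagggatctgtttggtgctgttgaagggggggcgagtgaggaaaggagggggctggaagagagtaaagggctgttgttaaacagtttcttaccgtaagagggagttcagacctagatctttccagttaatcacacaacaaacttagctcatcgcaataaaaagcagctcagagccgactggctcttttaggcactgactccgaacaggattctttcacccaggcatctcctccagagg
TATAAA stood 32 bases before the start of EREG and 29 bases before that of AREG, and was found in 11.5% of the 35116 promoters in the table. TGACGTCA stood 65 bases before the start of AREG and was found in 1.85% of all promoters. The promoters of HBEGF, HGF, VEGFC, FGF2, FGF7 and PDGFA, which has 4 entries, held neither. The AP-1 motif TGANTCA, found in 7.71% of all promoters, was in none of the entries of these genes. The Sp1 motif GGGCGG, found in 45% of all promoters, occurred in those of VEGFC, FGF2, PDGFA, AREG and HBEGF, with 5 matches in that of HBEGF. The hypoxia response core ACGTG, found in 21.4% of all promoters, occurred only in the EREG entry. A match of letters is a description of the sequence and not evidence of binding.

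EREG and AREG lie close together in the genome, while HBEGF and NRG1 are on other chromosomes. In GRCh37, the build of the counts, EPGN, EREG, AREG, the AREG copy AREGB and BTC, all EGF family genes, follow each other on chromosome 4. EREG (ENSG00000124882) lies on the plus strand from 75230862 to 75254466 and AREG (ENSG00000109321) from 75310853 to 75320722, 56.4 kb apart. HBEGF (ENSG00000113070) is on chromosome 5 (139712428 to 139726188, minus strand) and NRG1 (ENSG00000157168) on chromosome 8 (31496738 to 32713184, plus strand). FGF2 (ENSG00000138685) and VEGFC (ENSG00000150630) lie elsewhere on chromosome 4 (123747837 to 123819391, plus strand, and 177604689 to 177714076, minus strand), HGF (ENSG00000019991) and PDGFA (ENSG00000197461) on chromosome 7 (81328326 to 81399754 and 536895 to 559933, both minus strand), VEGFA (ENSG00000112715) on chromosome 6 (43737921 to 43754224, plus strand) and FGF7 (ENSG00000140285) on chromosome 15 (49715434 to 49780972, plus strand).

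Comparing siCtrl senescent with siCtrl proliferating cells, all 4 EGF family mRNAs rose, FGF2 mRNA rose by less and HGF mRNA fell. AREG rose 7.85-fold, EREG 3.47-fold, NRG1 3.40-fold and HBEGF 2.22-fold, while HGF was 1.80-fold higher in proliferating cells. VEGFC and FGF7 mRNAs rose by 1.1-fold and 1.12-fold, and VEGFA and PDGFA mRNAs did not pass the test. At an adjusted p under 0.05 (edgeR quasi-likelihood test, Benjamini-Hochberg over all tested genes), 8 of the 10 genes differed, 7 higher and 1 lower, where 58.1% of all tested genes differed, 29.8% higher and 28.3% lower. With a log2 fold change beyond 1 in either direction as well, the 4 EGF family genes differed, and so did 16.7% of all tested genes. The median log2 fold change was 0.42 over the 10 genes and 0.02 over all tested genes.

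AREG encodes amphiregulin, a ligand of EGFR. Its mRNA measured 1.63, 1.61 and 1.43 CPM in the siCtrl proliferating libraries, 12.6, 13 and 11.5 in the siCtrl senescent, 15, 14.9 and 16.5 in the siNTRK2 senescent and 20.3, 23.8 and 21.9 in the siBDNF senescent libraries. No group overlapped another, and the order was proliferating, siCtrl, siNTRK2, siBDNF, each step passing its test. The log2 fold change between siCtrl senescent and proliferating cells was 2.97 ± 0.10 (SE; adjusted p = 6.69e-18). GRCh37 holds a near-identical copy, AREGB (ENSG00000205595; chromosome 4, 75480629 to 75490486, plus strand), which RefSeq lists as another name of AREG. How reads that match both were assigned is not given in the sources used here, so the level of either alone is uncertain. AREG held between 38% and 40.6% of the summed counts of the pair in every library. AREGB gave log2 fold changes of 2.99 between senescent and proliferating cells, 0.28 with siNTRK2 and 0.84 with siBDNF. With both counts added before the fit, a choice made after seeing the data, the AREG values were 2.98, 0.30 and 0.83.

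**Figure D1:**
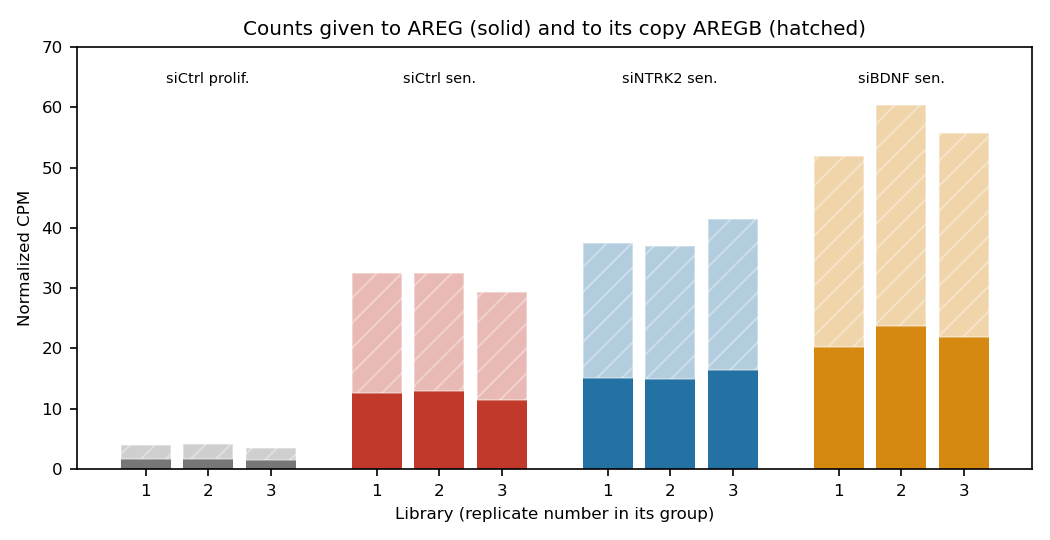
Normalized CPM given to AREG (solid) and to its copy AREGB (hatched), stacked for each of the 12 libraries by group and replicate number. The summed level was 3.54 to 4.23 CPM in proliferating libraries and 29.4 to 32.6, 37.1 to 41.5 and 51.9 to 60.4 CPM in siCtrl, siNTRK2 and siBDNF senescent libraries, and the solid share stayed between 38% and 40.6%.

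EREG encodes epiregulin, a ligand of EGFR and ERBB4. Its mRNA measured 10.7, 11.1 and 9.74 CPM in proliferating libraries, 38.4, 35.5 and 35.9 with siCtrl, 34.5, 31.0 and 34.2 with siNTRK2 and 63.3, 61.0 and 62.4 with siBDNF in senescent libraries. The siBDNF libraries stood highest and the proliferating libraries lowest, with siCtrl and siNTRK2 senescent libraries between them and close to each other. The log2 fold change of siCtrl senescent against proliferating cells was 1.79 ± 0.065 (SE; adjusted p = 1.32e-17).

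NRG1 encodes neuregulin, a ligand of ERBB3 and ERBB4. Its mRNA measured 13.6, 13.9 and 14.5 CPM in proliferating libraries, 48.4, 48.1 and 46.3 with siCtrl, 45.1, 46.2 and 47.8 with siNTRK2 and 53.3, 54.6 and 53.1 with siBDNF in senescent libraries. The siCtrl and siNTRK2 senescent libraries overlapped, and all senescent libraries lay above the proliferating ones. The senescent against proliferating log2 fold change was 1.77 ± 0.056 (SE; adjusted p = 8.03e-19). An unnamed gene on the same strand, RP11-1002K11.1, shares 1835 exon bases with NRG1, so that reads from the shared exons cannot be told apart between them. It measured 3.41 to 4.34 CPM in proliferating libraries. In senescent libraries it measured 10.9 to 11.2, 11.5 to 13.3 and 14.2 to 15.1 CPM with siCtrl, siNTRK2 and siBDNF. Its part in the NRG1 values was not tested.

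HBEGF encodes heparin-binding EGF, which also binds EGFR. Its mRNA measured 14.9, 13.6 and 14.3 CPM in proliferating libraries, 31.6, 32.2 and 31.3 with siCtrl, 37, 37.3 and 35.8 with siNTRK2 and 38.3, 36.9 and 37.4 with siBDNF in senescent libraries. Both silenced groups lay above siCtrl senescent cells and overlapped each other. The log2 fold change with senescence was 1.15 ± 0.059 (SE; adjusted p = 1.22e-14).

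FGF2, a broad mitogen of fibroblasts and endothelial cells, measured 83.1, 84.3 and 70.3 CPM in proliferating libraries, 124, 131 and 127 with siCtrl, 110.0, 116 and 116 with siNTRK2 and 162, 156 and 160.0 with siBDNF in senescent libraries. The groups did not overlap, with siBDNF highest and proliferating cells lowest. FGF2 mRNA rose by a log2 fold change of 0.68 ± 0.055 in senescent cells (SE; adjusted p = 9.38e-11). NUDT6, the antisense neighbour that shares 804 exon bases with FGF2, moved by 0.65 (adjusted p = 1.98e-07) from 15.6 to 24.6 CPM; the library kit keeps the strand, but whether the counting used it is not given in the sources used here. AC021205.1, which shares 77 exon bases on the same strand, measured 1.0 to 4.79 CPM over all libraries.

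HGF, the ligand of MET, measured 216, 201 and 189 CPM in proliferating libraries, 105, 119 and 113 with siCtrl, 111, 119 and 111 with siNTRK2 and 99.9, 99.0 and 99.5 with siBDNF in senescent libraries. Every senescent library lay below every proliferating one, and siCtrl and siNTRK2 libraries overlapped. HGF mRNA had a log2 fold change of -0.85 ± 0.053 in siCtrl senescent against proliferating cells (SE; adjusted p = 6.79e-13). By contrast, the paper's cytokine array found more HGF protein in medium from etoposide-senescent WI-38 cells than from proliferating ones. The lower mRNA therefore does not show lower secretion.

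VEGFC, a growth factor of lymphatic vessels, ranged from 65.2 to 68.7 CPM in proliferating and from 69.8 to 76.2 CPM in siCtrl senescent libraries (log2 fold change 0.14 ± 0.049 SE, adjusted p = 0.0193). FGF7, the keratinocyte growth factor, ranged from 67.7 to 75.3 and from 76.1 to 86.1 CPM in the same groups (0.16 ± 0.059 SE, adjusted p = 0.0227). Both calls were lost when siCtrl_Sen replicate 2 or 3 was left out, that of VEGFC also without siCtrl_Prolif replicate 1 (0.10, adjusted p = 0.13) and that of FGF7 also without siCtrl_Prolif replicate 3 (0.11, adjusted p = 0.122). VEGFC also lost its call with no filter on low counts (0.12, adjusted p = 0.079) and with library offsets that follow transcript length and GC content (the length and GC offset; 0.04), and with that offset FGF7 rose by more (0.51). VEGFA, the main angiogenic factor, ranged from 32.7 to 37.4 CPM in proliferating and from 30.7 to 36.9 CPM in siCtrl senescent libraries, with a 95% interval of the log2 fold change from -0.14 to 0.13 (adjusted p = 0.967), but with that offset the value was -0.24 and passed the test (adjusted p = 0.000748). PDGFA, a fibroblast mitogen, ranged from 3.98 to 4.40 and from 3.86 to 4.50 CPM, with an interval from -0.26 to 0.21 (adjusted p = 0.858). Of the FGF7 pseudogenes, FGF7P3, FGF7P6, FGF7P7 and FGF7P8 were tested and gave log2 fold changes of 0.13, 0.08, -0.60 and -0.75, with none called. FGF7P1 and FGF7P2, like the intronic transcripts NRG1-IT1 and NRG1-IT3 of NRG1, had too few counts to test. ENSG00000272114, antisense to VEGFA with 188 shared exon bases, measured 1.46 to 1.85 CPM in proliferating and 1.19 to 1.30 CPM in siCtrl senescent libraries. FAM227B, which overlaps FGF7 on the opposite strand without shared exon bases, measured 3.59 to 5.13 and 4.72 to 5.25 CPM there.

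**Figure D2:**
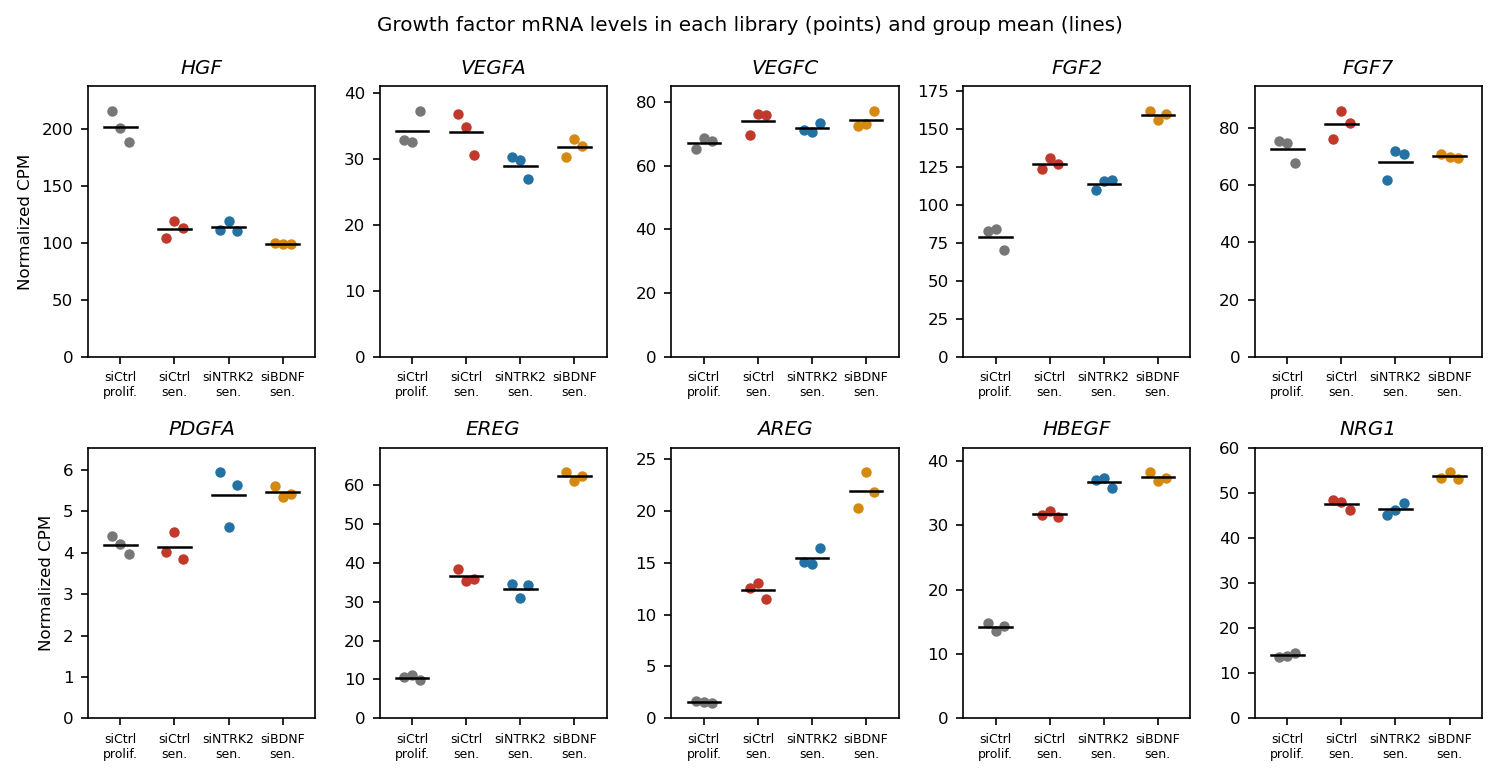
Normalized CPM (linear axis from 0, a separate scale for each gene) of the 10 growth factor mRNAs in the 12 libraries, with a point for each library and a line at the mean of each group of 3. The siCtrl senescent points of EREG, AREG, HBEGF and NRG1 lie above the proliferating points, those of HGF lie below them, and the siBDNF points of EREG reach 61.0 to 63.3 CPM.

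Per kilobase of exon, which allows levels to be compared between genes, VEGFC was the most abundant of the 10 mRNAs in proliferating cells (25.7 ± 0.702 CPM per kb, SD, n = 3), followed by HGF (20.7 ± 1.40), FGF2 (11.7 ± 1.14) and FGF7 (11.1 ± 0.658), the last pair overlapping. HBEGF (4.77 ± 0.218), VEGFA (2.38 ± 0.183), EREG (1.84 ± 0.119), AREG (0.949 ± 0.0662), PDGFA (0.915 ± 0.0457) and NRG1 (0.656 ± 0.0216) came after them, with AREG and PDGFA within their spread of each other. AREG is ranked here on its own counts; with the level of AREGB added, the pair measured 2.39 ± 0.214 CPM per kb in proliferating cells, overlapping VEGFA. In siCtrl senescent cells VEGFC stayed highest (28.3 ± 1.38), then came FGF2 (18.7 ± 0.558), FGF7 (12.5 ± 0.771), HGF (11.5 ± 0.749), HBEGF (10.6 ± 0.161), AREG (7.53 ± 0.488), EREG (6.40 ± 0.282), VEGFA (2.37 ± 0.221), NRG1 (2.23 ± 0.0531) and PDGFA (0.900 ± 0.0719). There, the libraries of FGF7 overlapped those of HGF, those of HGF overlapped those of HBEGF, and those of VEGFA overlapped those of NRG1. The summed level of AREG and AREGB was 19.1 ± 1.1 CPM per kb there, overlapping FGF2. The exon length is that of all annotated exons of a gene together, so genes with many alternative exons, such as NRG1 and VEGFA, come out low on this scale. The lengths are from GENCODE, while the study's methods name Ensembl, so the exons that were counted may differ. The ranks depend on these lengths. Before division, HGF measured 202 CPM and VEGFC 67.2 CPM in proliferating cells, with exon lengths of 9.753 and 2.618 kb.

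With siNTRK2 in senescent cells, the growth factor mRNAs differed little from siCtrl, in both directions. PDGFA, AREG and HBEGF mRNAs were higher by 1.31-fold, 1.25-fold and 1.16-fold, and FGF7, VEGFA and FGF2 mRNAs were lower, to 0.840, 0.851 and 0.896 of the siCtrl level. In the test, 6 of the 10 genes differed, 3 higher and 3 lower, where 21.1% of all tested genes differed, 11.1% higher and 10.0% lower. None of the 10 passed a log2 fold change of 1 as well (0.957% of all tested genes did), and their median was -0.04, beside -0.002 over all tested genes. The log2 fold changes were 0.39 ± 0.12 for PDGFA (SE; adjusted p = 0.0179), 0.32 ± 0.081 for AREG (0.00509), 0.21 ± 0.056 for HBEGF (0.00739), -0.25 ± 0.059 for FGF7 (0.00305), -0.23 ± 0.071 for VEGFA (0.0199) and -0.16 ± 0.055 for FGF2 (0.04).

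EREG gave -0.14 with an adjusted p of 0.109, although its siNTRK2 libraries, 31.0 to 34.5 CPM, all lay below the siCtrl libraries, 35.5 to 38.4 CPM. The 95% intervals of the other log2 fold changes ran from -0.09 to 0.12 for HGF, from -0.14 to 0.05 for VEGFC and from -0.14 to 0.06 for NRG1. The number of calls fell to 3 without siCtrl_Sen replicate 1 or siNTRK2_Sen replicate 3, and FGF2 lost its call with any of the 6 libraries left out (adjusted p from 0.0592 to 0.147) and with scaling by library totals alone (0.0942), while FGF7, AREG and HBEGF held theirs. VEGFA also lost its call without siCtrl_Sen replicate 2 and PDGFA without siCtrl_Sen replicate 3 or siNTRK2_Sen replicate 1, and with the length and GC offset EREG (-0.23) and NRG1 (-0.18) passed the test as lower.

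With siBDNF in senescent cells, the 4 EGF family mRNAs followed here rose further above their level with siCtrl. None of the other tested EGF family ligands was called, with log2 fold changes from -0.11 for NRG4 to 0.81 for TGFA. AREG mRNA was 1.78-fold, EREG 1.70-fold, HBEGF 1.2-fold and NRG1 1.13-fold higher, although the NRG1 value turned to -0.04 with the length and GC offset. PDGFA rose 1.32-fold and FGF2 1.25-fold, and HGF and FGF7 were at 0.886 and 0.863 of the siCtrl level. Of the 10 genes, 8 differed in the test, 6 higher and 2 lower, where 20.5% of all tested genes differed, 10.3% higher and 10.2% lower. None passed a log2 fold change of 1 as well (0.609% of all tested genes did), and the median was 0.21 over the 10 genes and 0.004 over all tested genes.

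The log2 fold changes with siBDNF were 0.83 ± 0.080 for AREG (SE; adjusted p = 3.97e-08), 0.77 ± 0.059 for EREG (1.38e-09), 0.24 ± 0.056 for HBEGF (0.00257), 0.17 ± 0.051 for NRG1 (0.0157), 0.40 ± 0.12 for PDGFA (0.0158), 0.32 ± 0.054 for FGF2 (0.000116), -0.17 ± 0.054 for HGF (0.0211) and -0.21 ± 0.059 for FGF7 (0.0108). PDGFA ranged from 5.35 to 5.62 CPM with siBDNF and from 4.62 to 5.95 CPM with siNTRK2, above the siCtrl senescent libraries in both. FGF7 ranged from 69.7 to 70.9 CPM with siBDNF and from 62.0 to 72.1 CPM with siNTRK2, below them in both. VEGFA and VEGFC did not pass the test, with 95% intervals from -0.24 to 0.04 and from -0.09 to 0.10, though VEGFA did with the length and GC offset (-0.22, adjusted p = 0.00646). The count of calls fell to 5 without siCtrl_Sen replicate 3 or siBDNF_Sen replicate 2, and FGF2, EREG, AREG and HBEGF held their calls with any library left out. HGF lost its call in every such fit except that without siCtrl_Sen replicate 1, FGF7 without siCtrl_Sen replicate 2 or siBDNF_Sen replicate 2, PDGFA without siCtrl_Sen replicate 1 or 3 or siBDNF_Sen replicate 1, and NRG1 without siCtrl_Sen replicate 3 or siBDNF_Sen replicate 2, and with scaling by library totals alone HGF (-0.12, adjusted p = 0.162) and FGF7 (-0.16, adjusted p = 0.0837) lost theirs. The length and GC offset moved HGF to -0.34, FGF7 to -0.41 and FGF2 to 0.16.

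**Figure D3:**
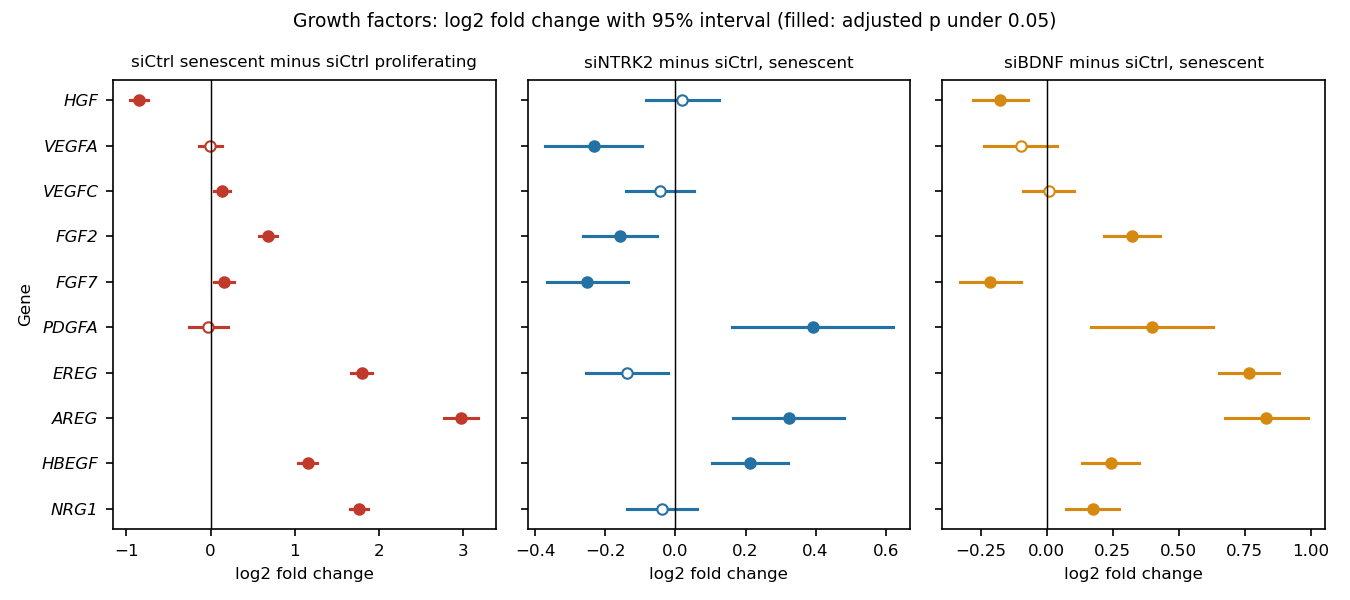
Log2 fold change (x axis, a separate scale for each panel) of the 10 growth factor mRNAs in siCtrl senescent against proliferating cells, and with siNTRK2 and siBDNF against siCtrl in senescent cells; points are the fitted values, lines their 95% intervals, and filled points have an adjusted p under 0.05. The EGF family genes stand right of 0 in the first panel (1.15 to 2.97) and in the siBDNF panel (0.17 to 0.83), while in the siNTRK2 panel EREG and NRG1 are open points left of 0.

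Both silencing comparisons use the same siCtrl senescent libraries, so the siRNAs were also compared directly. EREG, AREG, FGF2 and NRG1 mRNAs were lower with siNTRK2 than with siBDNF, and HGF mRNA was higher. The log2 differences (siNTRK2 minus siBDNF) were -0.90 ± 0.059 for EREG (SE; adjusted p = 3.78e-11), -0.51 ± 0.079 for AREG (4.03e-05), -0.48 ± 0.055 for FGF2 (4.15e-07), -0.21 ± 0.051 for NRG1 (0.00475) and 0.19 ± 0.054 for HGF (0.0131). These are 5 of the 10 genes, 1 higher and 4 lower, where 16.7% of all tested genes differed, 8.84% higher and 7.86% lower, and none passed a log2 difference of 1 as well (1.16% of all tested genes did). The median was -0.09 over the 10 genes and -0.004 over all tested genes. The 95% intervals of the others ran from -0.27 to 0.01 for VEGFA, from -0.15 to 0.04 for VEGFC, from -0.16 to 0.08 for FGF7, from -0.23 to 0.22 for PDGFA and from -0.14 to 0.08 for HBEGF. The HGF call was lost without siNTRK2_Sen replicate 2 (0.16, adjusted p = 0.0545) and with scaling by library totals alone (0.15, adjusted p = 0.0687). NUDT6, antisense to FGF2, gave -0.30 (adjusted p = 0.00914), after -0.14 with siNTRK2 and 0.16 with siBDNF against siCtrl, neither of which passed the test.

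The receptor mRNAs differed between siCtrl senescent and proliferating cells in both directions. Of 15 listed receptors of the 5 families, 13 were tested, and 3 were higher and 6 lower, beside 29.8% and 28.3% of all tested genes, with a median log2 fold change of -0.10. EGFR, the receptor of EREG, AREG and HBEGF, fell from 184 ± 3.84 to 125 ± 7.04 CPM (log2 fold change -0.56, adjusted p = 1.78e-10). The PDGF receptors PDGFRA and PDGFRB fell by more, with log2 fold changes of -1.04 and -1.30. FGFR1, the main FGF receptor of fibroblasts, gave -0.47, FLT1 -0.69 and FGFR4 -1.27. MET, the HGF receptor, rose from 50.3 ± 4.95 to 67.9 ± 3.11 CPM (0.43, adjusted p = 7.31e-07), as HGF itself fell. KDR (1.89, adjusted p = 0.0314) and FLT4 (1.84, adjusted p = 0.00699) rose as well, but from 0.0698 and 0.0866 to 0.273 and 0.332 CPM. ERBB2, which pairs with the other ERBB receptors, ranged from 99.7 to 103 CPM in proliferating and from 93.7 to 101 CPM in siCtrl senescent libraries (interval -0.16 to 0.03), and ERBB3 and ERBB4, the receptors of NRG1, averaged at most 0.360 CPM in any group and did not pass the test. FGFR2, whose epithelial isoform binds FGF7, had 0 counts in proliferating libraries and averaged 0.0931 CPM in siCtrl senescent ones, too few to test.

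With siNTRK2, 3 of 13 tested receptors were called, all higher, beside 21.1% of all tested genes, and with siBDNF 2 were higher and 5 lower, beside 20.5%. EGFR rose with siNTRK2 (0.24, adjusted p = 0.000467) and with siBDNF (0.32, adjusted p = 1.8e-05), and MET rose with siNTRK2 (0.21) and siBDNF (0.25). PDGFRA was lower with siBDNF (-0.24, adjusted p = 0.000214) and gave 0.05 with siNTRK2 (interval -0.03 to 0.13), and PDGFRB gave 0.28 with siNTRK2 and -0.14 with siBDNF, both past the test. FGFR1 was lower with siBDNF (-0.24), and FLT1 and ERBB2 were too (-0.29 and -0.19). KDR, FLT4, ERBB3 and ERBB4 passed the test with neither siRNA.

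**Figure D4:**
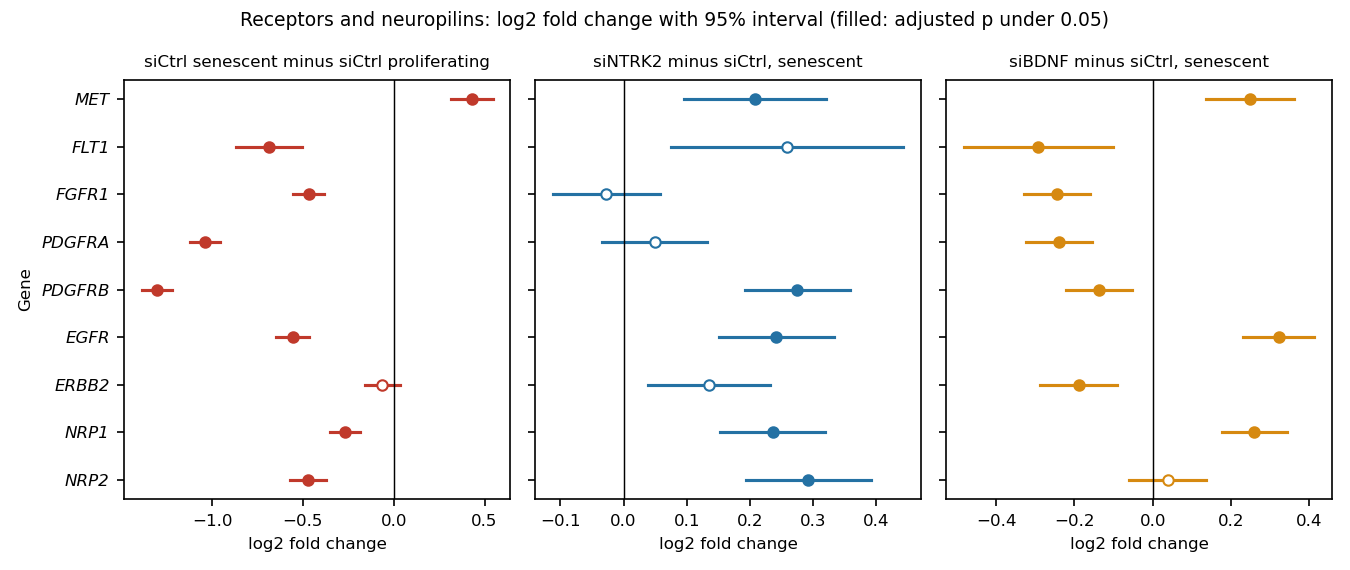
Log2 fold change (x axis, a separate scale for each panel) of receptor and neuropilin mRNAs in the same 3 comparisons, with 95% intervals; filled points have an adjusted p under 0.05. In the senescent against proliferating panel MET stands right of 0 at 0.43 and PDGFRB farthest left at -1.30, and EGFR stands right of 0 in both silencing panels (0.24 and 0.32).

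Co-receptors hold ligands at the cell surface or present them to the receptors. Of 14 listed neuropilins, heparan sulfate proteoglycans, klothos and partner proteins, all were tested, and 4 were higher and 8 lower in siCtrl senescent cells, beside 29.8% and 28.3% of all tested genes, with a median of -0.32. The lower ones were the neuropilins NRP1 and NRP2, the syndecans SDC1 to SDC4, and the glypicans GPC1 and GPC6, of which GPC6 fell most (-1.66). The higher ones included CD9, a partner of HBEGF (0.85), and CD44 (0.34), which presents heparin-binding ligands. KL and GPC3 rose from almost nothing: KL had 2 counts over the proliferating libraries (ratio 31.7, counting interval 8.45 to 267), and GPC3 had 0 (at least 5.42-fold higher). With siNTRK2, 4 of the 14 were higher and 3 lower, beside 21.1% of all tested genes called, and with siBDNF 2 were higher and 2 lower, beside 20.5%.

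Among 12 listed proteases that release or activate the ligands, 10 were tested, and 5 were higher and 5 lower in siCtrl senescent cells, beside 29.8% and 28.3% of all tested genes. ADAM17 and ADAM10, which shed EGF family ligands, fell by 0.26 and 0.52 on the log2 scale. PLAT, the tissue plasminogen activator, rose from 173 ± 7.87 to 540 ± 24.1 CPM (1.64), and ST14, an activator of pro-HGF, had 2 counts over the proliferating and 40 over the siCtrl senescent libraries (ratio 18.9, counting interval 4.91 to 162). ADAMTS3, which cuts pro-VEGFC, fell (-1.04), as did its cofactor CCBE1 (-0.51). PLAT was lower with siNTRK2 (-0.57) and siBDNF (-0.28), ADAM17 was higher with siBDNF (0.28), and CCBE1 was lower with siBDNF (-0.53). In all, 3 proteases were higher and 1 lower with siNTRK2, beside 21.1% of all tested genes called, and 3 were higher and 3 lower with siBDNF, beside 20.5%.

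A list of 8 genes held inhibitors of these proteases and receptors and the FGF carrier proteins FGFBP1 and FGFBP3. Of these, 7 were tested, and 4 were higher and 2 lower in siCtrl senescent cells, beside 29.8% and 28.3% of all tested genes. TIMP3, an inhibitor of ADAM17, rose from 584 ± 16.8 to 1225 ± 34.3 CPM (1.07, adjusted p = 3.56e-17). With siNTRK2 it measured 567 ± 6.02 CPM (-1.11 against siCtrl, adjusted p = 2.07e-15), while with siBDNF it stood at 1232 ± 31.3 CPM (siNTRK2 minus siBDNF, -1.12). SPINT2, an inhibitor of HGF-activating proteases, rose from 0.508 to 2.08 CPM (2.05) and was lower with siNTRK2 (-0.93, and -1.01 against siBDNF). These 2 of the 7 were called with siNTRK2, beside 21.1% of all tested genes. The 3 called with siBDNF (beside 20.5% of all tested genes), all higher, were the negative regulators of EGFR ERRFI1 (0.17), LRIG1 (0.27) and CBL (0.27).

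The other ligands of the 5 families did not share one direction. Of 23 listed, 19 were tested, and 6 were higher and 4 lower in siCtrl senescent cells, a share near that of all tested genes (58.1% in both directions), with a median log2 fold change of 0.38. PDGFD fell from 23.9 ± 2.44 to 4.71 ± 0.159 CPM (-2.34, adjusted p = 1.47e-16), and FGF5 (-0.69), PDGFC (-0.53) and FGF1 (-0.36) fell as well. The EGF family ligands EPGN, TGFA and NRG4 rose from near 0: EPGN, the neighbour of EREG, had 1 count over the proliferating and 63 over the siCtrl senescent libraries (ratio 59.7, counting interval 10.3 to 2394), TGFA had 0 and 37 (at least 3.65-fold higher), and NRG4 went from 0.0487 to 0.325 CPM (2.44). FGF11 (2.13), FGF13 (1.13) and PGF (0.87) rose too, at levels of 0.739 to 1.5 CPM in siCtrl senescent cells. Rises from 0 counts were not particular to ligands. Over the proliferating and siCtrl senescent libraries, the leukocyte markers PTPRC and LYZ had 0 and 162 and 0 and 43 counts. The endothelial marker CDH5 had 0 and 28, while TEK, another endothelial marker, fell (-1.20). The cause was not tested. BTC, the gene after AREGB on chromosome 4, averaged 0.0829 and 0.139 CPM and did not pass the test. With siNTRK2, 1 of the 19 was called, FGF1 (0.36), beside 21.1% of all tested genes, and with siBDNF (20.5%) VEGFB (-0.38), FGF5 (-0.22) and PDGFD (-0.38) were lower.

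The genes whose log2 CPM followed each ligand most closely over the 12 libraries are given as a description, since the libraries share group means that set such correlations. For EREG these were TFPI2 (Pearson r = 0.998) and AMPD3 (0.996), for AREG its copy AREGB (0.99955) and DCBLD2 (0.997), for HBEGF NPTXR (0.995) and LPCAT1 (0.995), and for NRG1 FUCA1 (0.998) and MICA (0.997). HGF was closest to PDGFRA (0.993) and ITGA4 (0.992), and FGF2 to YIPF6 (0.991) and USP12 (0.990). The genes that varied less had looser matches: PDGFA with ANKFY1 (0.958) and ENSG00000272356 (0.954), VEGFC with CDHR2 (0.953) and TPRG1 (0.920), FGF7 with TSPAN5-DT (0.925) and FGL2 (0.917), and VEGFA with CAPN5 (0.895) and HEXIM2 (0.877).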

How the data were processed

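Per the labels and the study's methods, the authors made stranded libraries from polyadenylated RNA, trimmed adapters with Cutadapt, aligned read pairs to hg19 with STAR 2.4.0j and counted them per gene with featureCounts 1.6.4; the deposited values are raw counts, 1 file per library. The strand and multi-mapping settings of the counting are not given in the sources used here. Symbols were paired with 55538 of the gene identifiers. Counts were scaled with TMM, filtered with filterByExpr and fitted with edgeR 4.0.16 (quasi-likelihood test, R 4.3.3) with 1 term per group over all 12 libraries, which pools the spread of the 4 groups; the Benjamini-Hochberg method was applied over 21518 genes. The study's methods name DESeq2, run here as an alternative (1.42.0). Standard errors are the log2 fold change over the square root of F, and 95% intervals follow from them. Coordinates and exon lengths come from GENCODE on GRCh37, promoters from RefSeq on GRCh38.p14. A floor of 3 counts and counting intervals cover counting error only, since reads carried no molecular identifiers. The fit was tested on simulated counts.

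The genes named by value are the 10 ligands, listed genes past an adjusted p of 0.05 and a log2 fold change of 1, the receptor of each ligand, copies, genes that share exon bases with a ligand, the 2 closest patterns of each ligand, and checks of silencing and senescence. Of the overlapping genes that share no exon bases with a ligand, only FAM227B, NRG1-IT1 and NRG1-IT3 are named. Some called genes with smaller fold changes, the overlapping genes found by coordinates and BTC were named after their values were seen. The 10 genes and the lists were chosen with earlier results of these data known. Symbols FGF7P4, FGF7P5, KGFLP1, KGFLP2, VEGFA-AS1, HGF-AS1, NRG1-IT2, NRG1-AS1 and PECAM1 were not matched and are not analysed here. Alternatives were DESeq2, edgeR with DESeq2's scaling or with unscaled totals, every gene kept or a minimum of 10 counts per library, a fit restricted to the compared groups, a replicate block, a length and GC offset (natural spline, 4 degrees of freedom), the stricter call with a log2 fold change over 1, and leaving out each library.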

Additional observations from a re-analysis of the deposited data

Results flagged for a closer look

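Against the shared siCtrl senescent libraries, siNTRK2 and siBDNF gave values of opposite sign for 5 of the 10 growth factors, and the direct test of the difference between the siRNAs passed for 4 of them but not for VEGFC (-0.05, adjusted p = 0.538). The log2 differences (siNTRK2 minus siBDNF) were -0.90 for EREG, -0.48 for FGF2, -0.21 for NRG1 and 0.19 for HGF. Against siCtrl, BDNF mRNA itself was higher with siNTRK2 (0.33) and lower with siBDNF (-1.79). The part of BDNF mRNA in these differences was not tested. The HGF difference lost its call without siNTRK2_Sen replicate 2 (0.16) and with scaling by library totals alone (0.15). FGF2 passed the test against siCtrl in both directions, lower with siNTRK2 (-0.16) and higher with siBDNF (0.32). Its siNTRK2 call was lost with any of the 6 libraries left out and with scaling by library totals alone. EREG with siNTRK2 (-0.14), NRG1 with siNTRK2 (-0.04) and HGF with siNTRK2 (0.02) did not pass against siCtrl, so for these 3 genes only the siBDNF change and the difference between the siRNAs were called. With the length and GC offset, NRG1 was negative with both siRNAs (-0.18 and -0.04), HGF was negative with both (-0.09 and -0.34), and the 4 differences between the siRNAs kept their sign.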

How the results depend on the processing

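Of 324 values from alternative settings, 303 kept their direction and side of the threshold, 6 lost the call, 4 gained one and 11 changed sign; of 240 values with 1 library left out, 198, 32, 0 and 10 did. With a log2 fold change over 1 required as well, the calls among the 10 genes became 4 for senescent against proliferating cells, 0 with siNTRK2, 0 with siBDNF and 0 between the siRNAs. Leaving out libraries gave 3 to 5 calls with siNTRK2 and 5 to 7 with siBDNF. VEGFA between senescent and proliferating cells, near 0 in the fit reported, changed sign with DESeq2 (0.010), DESeq2 size factors (0.013), library totals (0.033), at least 10 counts (0.030) and only the groups compared (0.0030), and PDGFA with library totals (0.0084) and at least 10 counts (0.0067). With the length and GC offset the sign changed for HGF (-0.095) and VEGFC (0.020) with siNTRK2, for NRG1 with siBDNF (-0.035) and for FGF7 between the siRNAs (0.036); the cause was not tested. With a library left out, values that changed sign ran from -0.065 to 0.057 for VEGFA and from -0.11 to 0.0085 for PDGFA in senescence, from -0.030 to 0.075 for HGF with siNTRK2, from -0.033 to 0.034 for VEGFC with siBDNF, and from -0.074 to 0.028 for FGF7 and from -0.084 to 0.096 for PDGFA between the siRNAs. Same-numbered libraries showed no shared deviation over all tested genes (mean r = 0.0018, 0 of 18 pairs over 0.1). That cannot settle whether the numbers mark shared experiments, since such experiments need not leave a large deviation. A replicate block kept 8, 6, 8 and 5 calls in the 4 comparisons and changed no call. The length and GC offset moved the median log2 fold change of all genes by -0.055 in senescence.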
